A study of Panax notoginseng with 12 samples.

Results

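Roots of Panax notoginseng given ammonium as the only nitrogen source (15A) were compared with control roots given no nitrogen (CK), using the 3 RNA-seq libraries of each group out of 12 in the series. Of the 146330 loci in the expression table, the 21589 with a mean of 5 FPKM or more in CK or 15A were compared (FPKM, fragments per kilobase of transcript, scaled to the mapped fragments of a library). The plants were grown in hydroponics at 15 mM ammonium for 15A, 15 mM nitrate for 15N, and both at 15 mM for 15AN. The methods state that all seedlings first spent a week in a complete solution with ammonium nitrate, so CK was without nitrogen only during the treatment. By the study's methods, ammonium was supplied as its sulfate salt, so that ammonium and the accompanying sulfate cannot be told apart, nitrate was supplied as calcium nitrate, and 15AN received ammonium nitrate. Dicyandiamide, an inhibitor of nitrification, was in the solutions of all groups. The labels describe seedlings of 3 days and the methods describe much older greenhouse plants harvested on the third day of treatment, so the plant age is not settled. RNA was pooled before library preparation and it is not stated whether the 3 libraries of a group came from separate pools, so p-values measure only the spread between these libraries, which may be technical.

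Plants take up ammonium through AMT transporters and fix it into glutamine and glutamate with glutamine synthetase (GS) and glutamate synthase (GOGAT), which use carbon skeletons from glycolysis and the TCA cycle. Ammonium as the only nitrogen source slows root growth in many species, and nitrate given with it lessens this effect. P. notoginseng is known for its triterpene saponins and, like other members of its family, for polyacetylenes, which are made from desaturated fatty acids. In bulk root RNA, fewer cells of a type and less RNA per cell cannot be told apart.

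The summed FPKM differed between groups, with 1420000 to 1518000 in CK and 2042000 to 2593000 in 15A, while 43800 to 44163 loci in CK and 40102 to 42323 loci in 15A were above 0. With all libraries brought to 1 total, called the same total below, the log2 difference over all tested loci had a median that moved from 0.09 to -0.50, and calls of named loci that were lost under it are given with those loci. Within 15A, replicate 1 stood apart. It differed at least 2-fold from the other 2 libraries of its group, averaged on the log2 scale, at 7.41% of the tested loci, against 4.15% to 4.28% for 15A replicates 2 and 3 and 2.49% to 2.55% for the CK libraries. One locus without a protein description, XLOC_117689, held 134700 FPKM in 15A replicate 1 and 0 in the other 5 libraries of CK and 15A. A dominant locus was not particular to this library. The top locus held 5.19% of the summed FPKM in 15A replicate 1, 8.79% and 5.33% in replicates 2 and 3, and 4.39% to 5.46% in CK. Results that depend on 15A replicate 1 are given with and without it.

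In 15A, 1636 loci were higher and 1514 were lower than in CK, at an adjusted p under 0.05 (limma on log2(FPKM + 1), Benjamini-Hochberg) and a difference of more than 2-fold. These calls are 7.58% and 7.01% of the tested loci. Differences of 4-fold or more were found for 359 of the higher and 415 of the lower loci. A description of a matching protein in the Nr database was present for 69.6% of the higher and 76.1% of the lower loci. Without 15A replicate 1, 1619 loci were higher and 1611 lower (7.48% and 7.44%), and 1393 of the 1636 and 1362 of the 1514 calls were kept. At the same total, 606 loci were higher and 4352 lower (2.81% and 20.2%), and all of the 1514 lower calls but only 606 of the 1636 higher calls were kept.

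**Figure D1:**
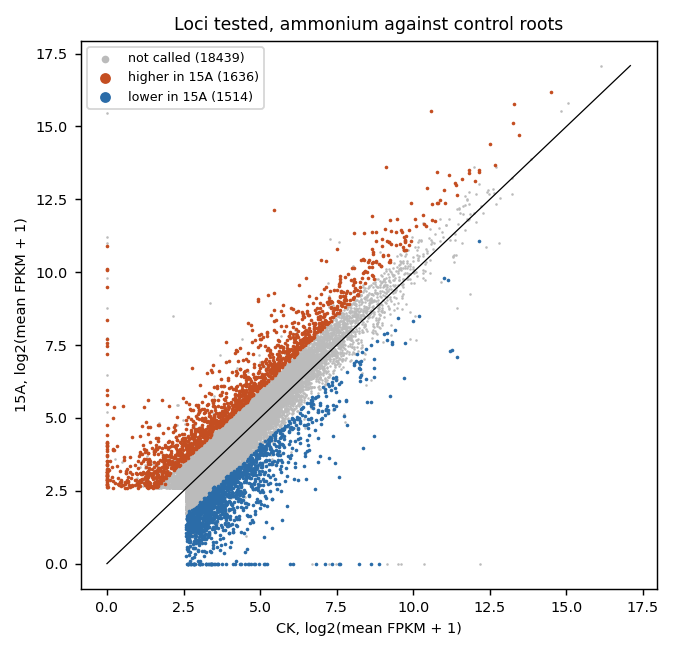
Each point is one tested locus, with the log2 of its mean FPKM plus 1 over the 3 CK libraries on the horizontal axis and over the 3 15A libraries on the vertical axis; the line marks equal values. The 1636 loci called higher in 15A lie above the line and the 1514 called lower lie below it, while points close to the lower left corner are missing because of the filter of 5 FPKM.

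The largest increases among described loci included transcription factors, protease inhibitors, and enzymes of fatty acids and the cell wall. XLOC_110064, an ERF095-like ethylene-responsive factor, had 12.2, 14.5, and 15.0 FPKM in CK and 248.4, 170.7, and 164.3 FPKM in 15A. Its log2 fold change was 3.69 ± 0.14 (SE, n = 3 per group, adjusted p = 3.95e-08), and the lowest 15A library was far above the highest CK library. A cystatin-type cysteine proteinase inhibitor (XLOC_041510) went from 167 to 199 FPKM in CK to 1566 to 2093 FPKM in 15A, a log2 fold change of 3.27 ± 0.11 (SE). XLOC_018884, annotated as snakin-2, a small cysteine-rich peptide, had 71.1 to 81.9 FPKM in CK and 654 to 941 FPKM in 15A (log2 fold change 3.28 ± 0.15). A regulatory subunit of the 26S protease (XLOC_015798) had 123.1 to 128 FPKM in CK and 1230 to 1530 FPKM in 15A (log2 fold change 3.44 ± 0.08). All 4 of these loci stayed called in every alternative listed in the closing section. In the order given, their means were 184.8, 1878, 461.1, and 1218 FPKM in 15N, and 78.9, 688.3, 97.9, and 738.3 FPKM in 15AN. None of them was called in 15A against 15N, and all but the 26S subunit were called higher in 15A than in 15AN.

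The largest decreases included loci that were nearly absent from 15A roots. XLOC_003628, annotated as a FAM10 family protein, had 24.3, 49.97, and 28.6 FPKM in CK and was listed at 0 in the 3 libraries of 15A, of 15N, and of 15AN alike. A BURP domain protein (XLOC_069184), of a family of cell wall proteins, fell from 39.8 to 41.6 FPKM in CK to 0.838 to 1.69 FPKM in 15A (log2 fold change -4.18 ± 0.21). A basic 7S globulin precursor (XLOC_111912), of an aspartic protease-like family, fell from 140.2 to 172 FPKM to 10.4 to 12.04 FPKM (log2 fold change -3.62 ± 0.15). Metal tolerance protein 4 (XLOC_032221), of a family of metal transporters, fell from 33.5 to 38.5 FPKM to 1.78 to 4.57 FPKM (log2 fold change -3.28 ± 0.20). The calls of these 4 loci held in every alternative as well. The last 3 were also low in 15N (5.695, 18.6, and 7.46 FPKM) and in 15AN (1.515, 25.9, and 6.46 FPKM). XLOC_108595, a regulatory subunit of the 26S proteasome, was listed at 0 in 15A replicates 2 and 3 and had 5.13 FPKM in replicate 1, so the size of its fall from 25.1 to 52.2 FPKM in CK is uncertain. Its mean was 6.36 FPKM in 15N but 33.3 FPKM in 15AN, and it was called lower in 15A than in 15AN.

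Gene lists built from the protein descriptions were next counted against these shares of all loci. For every list here and below, they are 7.58% higher and 7.01% lower, and 2.81% and 20.2% at the same total. Class III peroxidases fell most often, with 14 of 29 tested loci lower and 1 higher, against 7.01% and 7.58% of all loci. Lower loci also outnumbered higher ones among auxin genes (19 lower and 4 higher of 62), AP2/ERF factors (13 and 3 of 43), genes of phenylpropanoids and lignin (18 and 5 of 77), and cellulose and beta-glucan genes (11 and 1 of 65). Their lower calls were all kept at the same total, as were all 1514 lower calls, so this does not set these lists apart. In the same order, 16, 17, 18, and 10 loci were lower than CK in 15N, and 12, 15, 14, and 9 in 15AN. Lower in 15A than in 15N were 2, 0, 1, and 1, so falls in these lists were not particular to 15A. Higher loci outnumbered lower ones among fatty acid desaturases and acetylenases (13 higher and 1 lower of 43), cytochrome P450 enzymes (14 and 7 of 68), and NAC factors (7 and 0 of 29). At the same total these counts became 5 higher and 4 lower, 6 higher and 22 lower, and 4 higher and 6 lower. The shares of all loci were then 2.81% and 20.2%, so the higher share of each list stayed above that of all loci. In the same order, counts of higher and lower loci against CK were 13 and 0, 15 and 11, and 3 and 5 in 15N. In 15AN they were 10 and 1, 8 and 17, and 1 and 4. Of 187 loci in the list of heat shock proteins, which also holds other chaperones, 12 were higher and 12 lower, and 7 and 44 at the same total. The cytosolic ribosomal proteins, with 4 higher and 6 lower of 179, are shares of 2.23% and 3.35%, and had 2 higher and 10 lower without 15A replicate 1 and none higher and 33 lower at the same total.

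**Figure D2:**
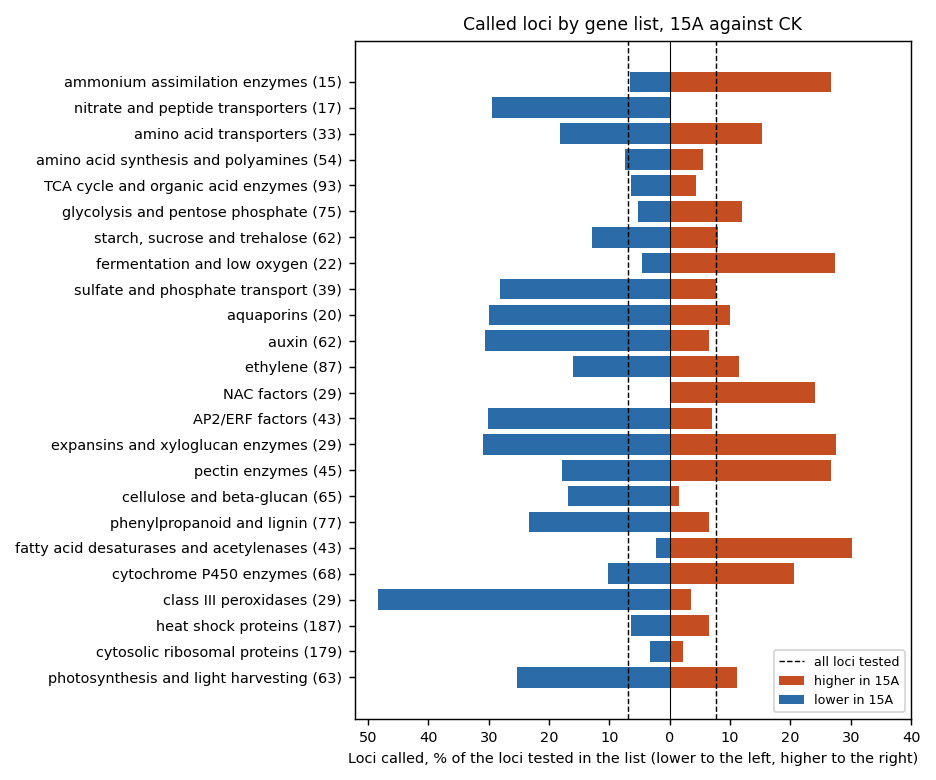
Bars give the share of tested loci of each gene list that were called lower (left) or higher (right) in 15A against CK, in percent, with the number of tested loci in brackets; dashed lines mark the shares over all tested loci (7.01% lower and 7.58% higher). Class III peroxidases have the longest bar on the left and fatty acid desaturases and acetylenases the longest on the right.

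Nitrogen uptake was examined first. Of 10 loci described as ammonium transporters, 2 passed the filter. XLOC_029314 (scaffold12013:26680-67055, minus strand), similar to ammonium transporter 3 member 1, had 1.72, 1.46, and 1.14 FPKM in CK and 11.5, 12.3, and 9.33 FPKM in 15A. It rose by 2.30 ± 0.18 (SE) on the log2 scale (adjusted p = 4.57e-06), and the libraries of the groups did not overlap, which held for 34.6% of all tested loci in this direction. Its mean was similar in 15N (9.25 ± 2.78 FPKM, SD, n = 3) and in 15AN (8.95 ± 0.236 FPKM), and neither differed from 15A at the thresholds. The other one, XLOC_119887, had 5.57 to 7.78 FPKM in CK and 4.94 to 12.5 FPKM in 15A, and was not called. By their Nt (nucleotide) match alone, XLOC_036487 is an ammonium transporter 1 (33.1 to 37.2 FPKM in CK and 26.0 to 26.6 FPKM in 15A) and XLOC_118334 an ammonium transporter 2 (mean 6.82 FPKM in CK and 4.85 FPKM in 15A). Both differed by less than 2-fold.

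Several loci described as nitrate transporters or as members of the nitrate and peptide transporter family were lower in 15A. In 15A, as in CK, the treatment supplied no nitrate. XLOC_104526 (scaffold34177:24114-25856, plus strand), a high-affinity nitrate transporter 2.4 by its Nt match only, had 14.1, 13.3, and 13.3 FPKM in CK and 0.874, 1.17, and 1.68 FPKM in 15A. It fell by 2.71 ± 0.15 on the log2 scale (adjusted p = 3.57e-07) without overlap between the groups, which held for 24.1% of all tested loci in this direction, and was also low in 15N (mean 0.844 FPKM) and 15AN (2.32 FPKM). Of 17 tested loci of the NRT1/PTR family, which carries nitrate and peptides, 5 were lower and none was higher, with a median log2 difference of -0.35 against 0.09 over all loci. XLOC_037917 (family member 5.1) fell from 15.4 to 16.5 FPKM in CK to 3.66 to 5.11 FPKM in 15A (log2 fold change -1.67 ± 0.12), lower than the means of 15N (8.15 FPKM) and 15AN (7.60 FPKM), though not past the thresholds in either direct test. XLOC_015320, similar to member 6.3, which in Arabidopsis transports and senses nitrate, was at a mean of 5.50 FPKM in CK, 2.82 FPKM in 15A, 0.530 FPKM in 15N, and 0.219 FPKM in 15AN. Its log2 fold change in 15A against CK was -0.78 ± 0.17 and was not called, while 15A was above 15N by 1.31 ± 0.17 and above 15AN by 1.64 ± 0.17. This locus was chosen after its values were seen.

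Loci described as nitrate reductase (3 loci) and nitrite reductase (1 locus) were at 0.942 FPKM or less in every library and were not tested. One further locus, XLOC_067676, matches nitrite reductase in Nt but a fucosyltransferase in Nr, so its identity is uncertain. It had 43.8 ± 1.43 FPKM in CK, 82.4 ± 11.1 FPKM in 15A, 326.7 ± 11.3 FPKM in 15N, and 67.5 ± 4.39 FPKM in 15AN (SD, n = 3). The value in 15A was less than 2-fold above CK (log2 fold change 0.89 ± 0.09) and was lower than in 15N by 1.98 ± 0.09 on the log2 scale. The 4 tested loci of molybdenum cofactor synthesis, which serves nitrate reductase, did not pass the thresholds.

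Among 15 tested loci of ammonium assimilation, 4 were higher and 1 was lower in 15A, and at the same total none was higher and 4 were lower. The 4 higher ones were a plastid GS, a pair of NADH-GOGAT entries, and a glutamate dehydrogenase. XLOC_097848 (scaffold3137:166150-196952, plus strand), an NADH-dependent GOGAT, had 65.1, 66.0, and 66.5 FPKM in CK and 143, 193, and 193 FPKM in 15A. It rose by 1.40 ± 0.11 on the log2 scale (adjusted p = 3.99e-06), with means of 153 FPKM in 15N and 126 FPKM in 15AN. At the same total its log2 fold change was 0.77 and was not called. XLOC_097847 has the same coordinates and strand, so how reads were divided between these entries is uncertain. It rose by 1.10 ± 0.24, but was not called in the fits without 15A replicate 2 (log2 fold change 0.92) or 15A replicate 3 (0.94). The call of XLOC_097847 was also lost under quantile normalisation (0.74) and at the same total (0.47).

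The 4 tested GS loci differed in direction. The plastid GS XLOC_131375 had 5.07, 7.80, and 8.78 FPKM in CK and 24.0, 16.6, and 25.9 FPKM in 15A, a rise of 1.5 ± 0.22 on the log2 scale, which was not past the threshold at the same total. The cytosolic GS loci, at a higher level, were XLOC_011567 with 85.1 to 90.4 FPKM in CK and 115 to 123.4 FPKM in 15A, and XLOC_106158 with 69.3 to 72.5 FPKM and 105 to 122 FPKM. Their log2 fold changes of 0.43 and 0.66 were under the 2-fold threshold. A second plastid GS (XLOC_057256) had a mean of 15.7 FPKM in CK and 10.3 FPKM in 15A, and was not called.

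Glutamate dehydrogenase A (XLOC_109827, scaffold36028:31554-38663, minus strand), which adds ammonium to 2-oxoglutarate or releases it from glutamate, was higher in all 15A libraries than in any CK library. It had 60.1, 61.0, and 61.2 FPKM in CK and 127, 132, and 142 FPKM in 15A, a log2 fold change of 1.12 ± 0.07 (adjusted p = 5.51e-07). It was at 69.6 FPKM in 15N and 48.3 FPKM in 15AN, and 15A exceeded 15AN by 1.45 ± 0.07 on the log2 scale (adjusted p = 4.29e-07). Its difference from 15N, 0.93 ± 0.07, stayed under 2-fold. At the same total its log2 fold change against CK was 0.50, which is under the threshold, and the call was also lost under quantile normalisation.

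Asparagine synthetase (XLOC_026545, scaffold11425:75342-79657, minus strand), which moves the amide nitrogen of glutamine to aspartate, was lower in every nitrogen treatment and least so in 15A. It had 162, 172, and 169 FPKM in CK and 61.0, 92.8, and 90.7 FPKM in 15A, and its means were 32.0 FPKM in 15N and 26.0 FPKM in 15AN. The log2 fold change in 15A against CK was -1.05 ± 0.13 (adjusted p = 9.89e-05), and without 15A replicate 1 it was -0.86 and no longer past 2-fold. Compared directly, 15A was higher than 15N by 1.30 ± 0.13 and higher than 15AN by 1.59 ± 0.13 on the log2 scale. It thus passed the thresholds in the 3 comparisons, lower against CK and higher against the nitrate-fed groups.

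**Figure D3:**
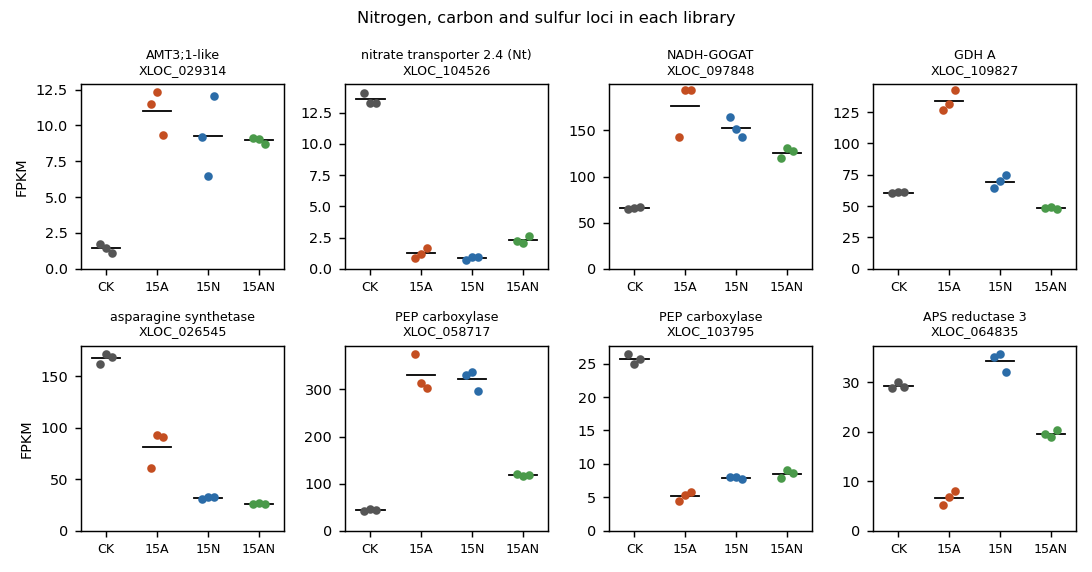
Points are the FPKM of the 3 libraries of each group on linear axes from 0, and lines are group means, for 8 loci of nitrogen, carbon and sulfur metabolism (GOGAT, glutamate synthase; GDH, glutamate dehydrogenase; PEP, phosphoenolpyruvate; APS, adenylylsulfate). The AMT3;1-like and GOGAT loci are high in the 3 nitrogen treatments, GDH A is highest in 15A (127 to 142 FPKM), and APS reductase 3 is lowest in 15A (5.18 to 7.997 FPKM).

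Genes of amino acid and polyamine synthesis had 3 higher and 4 lower of 54 loci (5.56% and 7.41%, near the shares of all loci, and 1 and 14 at the same total). They included a locus that set 15A apart from all other groups. Arginine decarboxylase, the entry step from arginine to the polyamine putrescine, is represented by XLOC_052245 (scaffold17206:37423-39588, plus strand). It had 26.7, 26.8, and 24.6 FPKM in CK and 68.0, 65.4, and 65.4 FPKM in 15A. It rose by 1.32 ± 0.07 on the log2 scale (adjusted p = 2.71e-07), and the 3 libraries of 15A stood close together. The means were 25.7 FPKM in 15N and 18.9 FPKM in 15AN, and 15A exceeded 15N by 1.34 ± 0.07 and 15AN by 1.76 ± 0.07. At the same total its log2 fold change against CK was 0.70 and was not called. A second arginine decarboxylase (XLOC_144826) had means of 6.69 FPKM in CK and 10.8 FPKM in 15A. Later steps of the pathway, spermidine synthase (XLOC_012479, 38.4 FPKM in CK and 25.8 FPKM in 15A) and spermine synthase (XLOC_097849, 27.0 to 29.5 FPKM in CK and 43.0 to 46.2 FPKM in 15A), differed by less than 2-fold. These 3 loci were chosen after their values were seen.

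A pair of S-adenosylmethionine synthases, which make the methyl donor that also feeds ethylene and polyamine synthesis, changed in opposite directions. XLOC_115737 had 10.98 to 11.08 FPKM in CK and 58.8, 68.8, and 65.6 FPKM in 15A (log2 fold change 2.44 ± 0.07), while XLOC_123170 fell from 137 to 140.1 FPKM to 45.7 to 65.3 FPKM (log2 fold change -1.25 ± 0.12). The first one had a mean of 70.3 FPKM in 15N but 12.4 FPKM in 15AN. Cytosolic aspartate aminotransferase (XLOC_041081), which exchanges amino groups between glutamate and aspartate, rose from 91.1 to 97.6 FPKM to 196 to 242 FPKM, a call that was lost at the same total and under quantile normalisation.

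Glutamate decarboxylase, which makes GABA from glutamate, also varied by locus. XLOC_067700 rose from 10.3 to 10.96 FPKM in CK to 27.4 to 47.0 FPKM in 15A (log2 fold change 1.69 ± 0.17), whereas XLOC_005213 fell from 18.6 to 20.8 FPKM to 3.10 to 8.99 FPKM (-1.75 ± 0.29). Among 33 amino acid transporters, 5 were higher and 6 lower (15.2% and 18.2%), and 1 and 10 at the same total. The vacuolar transporter YPQ1 (XLOC_118017) rose most, from 9.09 to 9.63 FPKM to 47.1 to 69.5 FPKM, and oligopeptide transporter 7 (XLOC_086551) fell from 29.95 to 31.4 FPKM to 8.21 to 11.2 FPKM.

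In central carbon metabolism, phosphoenolpyruvate carboxylase (PEPC) loci changed in opposite directions. PEPC forms oxaloacetate and so refills the TCA cycle when carbon is drawn off for amino acids. Of 6 tested PEPC loci, 1 rose and 4 fell. XLOC_058717 (scaffold18812:55457-61910, minus strand) had 42.9, 46.4, and 44.7 FPKM in CK and 375, 313, and 302 FPKM in 15A, a log2 fold change of 2.85 ± 0.09 (adjusted p = 1.04e-08). XLOC_103795 fell from 25.0 to 26.5 FPKM to 4.40 to 5.80 FPKM (log2 fold change -2.12 ± 0.09), and the housekeeping isozyme XLOC_130436 fell from 15.5 to 16.3 FPKM to 2.44 to 3.59 FPKM (-2.04 ± 0.11). Summed over all PEPC loci, the mean level was 136 FPKM in CK, 369 FPKM in 15A, 366 FPKM in 15N, and 160 FPKM in 15AN. XLOC_058717 was higher in 15A than in 15AN by 1.47 ± 0.09 on the log2 scale and differed from 15N by 0.03 ± 0.09, which was not called.

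The list of TCA cycle and organic acid enzymes, PEPC included, had 4 higher and 6 lower of 93 loci, and 1 and 12 at the same total. Its shares of 4.3% and 6.45% were no more than those of all loci. The 7 tested loci described as ATP-citrate lyase, which splits citrate into oxaloacetate and acetyl-CoA, were not called, and their log2 fold changes ranged from -0.35 (XLOC_122868) to 0.75 (XLOC_092399). A locus discussed in the study as a subunit of this enzyme was looked up as well, although Nr calls it a hypothetical protein. This locus, XLOC_057761, had 150.3, 186, and 166 FPKM in CK and 167, 185, and 243 FPKM in 15A, and the groups overlapped. Its means were 404 FPKM in 15N and 389.8 FPKM in 15AN, and 15A was lower than 15N by 1.04 ± 0.13 on the log2 scale.

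Glycolysis had 9 higher and 4 lower of 75 loci, which became 1 higher and 13 lower at the same total. Enolase (XLOC_031125), which forms phosphoenolpyruvate, rose from 2536 to 2689 FPKM to 6885 to 9760 FPKM (log2 fold change 1.70 ± 0.14) and was the one that kept its call at that scaling. Cytosolic pyruvate kinase (XLOC_034749) had 336 to 360 FPKM in CK and 996 to 1155 FPKM in 15A (log2 fold change 1.60 ± 0.07), a call lost at the same total. Of 62 loci of starch, sucrose, and trehalose metabolism, 5 were higher and 8 lower (8.06% and 12.9%), and 2 and 19 at the same total. Alpha-glucan water dikinase (XLOC_048523), which phosphorylates starch before its breakdown, fell from 13.5 to 15.0 FPKM to 1.29 to 1.73 FPKM (-2.64 ± 0.10), and beta-amylase (XLOC_047438), which releases maltose, fell from 18.2 to 19.9 FPKM to 4.24 to 4.73 FPKM (-1.85 ± 0.09). The sucrose transporter SUT3 (XLOC_070932) fell from 32.2 to 37.7 FPKM to 9.79 to 11.3 FPKM. The sugar transporter SWEET1 (XLOC_140612), although low, had 2.58, 3.27, and 2.48 FPKM in CK and 9.46, 13.95, and 13.4 FPKM in 15A, against means of 1.18 FPKM in 15N and 1.65 FPKM in 15AN.

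The list of fermentation and low oxygen, built from words of the descriptions, had 6 higher and 1 lower of 22 loci, and 3 of each at the same total. Whether each member responds to low oxygen in this species was not tested. Non-symbiotic hemoglobin (XLOC_095048), which removes nitric oxide, had 263, 255, and 277 FPKM in CK and 1469, 951, and 971 FPKM in 15A (log2 fold change 2.06 ± 0.14). A short-chain alcohol dehydrogenase (XLOC_054840), which is in the list by its name only, rose from 587 to 645 FPKM to 1785 to 2268 FPKM. Pyruvate decarboxylase 1 (XLOC_004514), the step that opens fermentation, fell from 43.5 to 46.4 FPKM to 13.2 to 17.5 FPKM (-1.49 ± 0.12).

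Sulfate and phosphate transport and assimilation had 3 higher and 11 lower of 39 loci (2 and 10 without 15A replicate 1, and 1 and 15 at the same total). The clearest sulfur gene was 5'-adenylylsulfate (APS) reductase 3 (XLOC_064835, scaffold20390:54576-57143, plus strand), which reduces activated sulfate to sulfite. It had 28.8, 30.1, and 29.0 FPKM in CK and 5.18, 6.84, and 7.997 FPKM in 15A, a log2 fold change of -1.999 ± 0.12 (adjusted p = 5.25e-07). The mean was 34.3 FPKM in 15N and 19.6 FPKM in 15AN, and 15A was lower than both by 2.22 and 1.44 on the log2 scale. Of 4 tested APS reductase loci this was the only one called, and the median log2 difference of the 4 was 0.47. Summed over these loci, the mean level was 165 FPKM in CK, 242 FPKM in 15A, 234 FPKM in 15N, and 207 FPKM in 15AN, so the fall was of this locus and not of the sum. Sulfate transporter 1.3 (XLOC_043285), of the group that takes up sulfate in Arabidopsis roots, fell from 5.85 to 7.04 FPKM to 0.537 to 1.15 FPKM. Sulfate transporter 3.5 (XLOC_021950, chosen after its values were seen) rose from a mean of 190 ± 6.19 FPKM to 735 ± 119 FPKM (SD, n = 3), a log2 fold change of 1.94 ± 0.11. It had 432 FPKM in 15N and 223.5 FPKM in 15AN.

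The high-affinity phosphate transporter XLOC_029501 had 59.5, 59.0, and 55.0 FPKM in CK and 6.60, 7.93, and 6.80 FPKM in 15A, a log2 fold change of -2.86 ± 0.08 (adjusted p = 7.03e-09). It was low in 15N (3.43 FPKM) and 15AN (7.90 FPKM) as well. The phosphate exporter PHO1 (XLOC_059151) fell from 4.37 to 6.36 FPKM to 0.337 to 0.581 FPKM. Potassium and other cation transport had 1 higher and 2 lower of 34 loci, and 1 and 6 at the same total. The outward channel SKOR (XLOC_017325), which loads potassium into the xylem in Arabidopsis, rose from 15.9 to 19.5 FPKM to 53.5 to 74.5 FPKM, and potassium transporter 8 (XLOC_014290) fell from 14.4 to 15.8 FPKM to 3.37 to 4.71 FPKM. The vacuolar proton-pumping pyrophosphatase XLOC_011256 rose from 197 to 201 FPKM to 615 to 658 FPKM (1.67 ± 0.06). Aquaporins had 2 higher and 6 lower of 20, and none higher and 8 lower without 15A replicate 1, among them a tonoplast intrinsic protein (XLOC_053729) with 614 to 654 FPKM in CK and 316, 114, and 121 FPKM in 15A.

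In the auxin list, 19 loci fell and 4 rose, with a median log2 difference of -0.37 over its 62 loci, and the count was 5 higher and 18 lower without 15A replicate 1. Auxin response factor 19 (XLOC_027619), a transcriptional activator of auxin responses, fell from 19.3 to 20.4 FPKM to 2.87 to 3.78 FPKM (-2.26 ± 0.10). Ethylene genes went both ways, with 10 higher and 14 lower of 87, and 4 higher and 29 lower at the same total. An ACC synthase (XLOC_069289), which makes the ethylene precursor ACC, had 18.5, 18.8, and 20.6 FPKM in CK and 98.0, 102, and 102 FPKM in 15A (log2 fold change 2.33 ± 0.09). An ACC oxidase (XLOC_094103), which converts ACC to ethylene, fell from 14.3 to 16.6 FPKM to 0.586 to 0.750 FPKM (-3.28 ± 0.16). Among 7 tested ACC oxidase loci, 1 was higher and 2 were lower.

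Of 65 loci of abscisic acid and protein phosphatases 2C, 3 were higher and none was lower, and at the same total 1 was higher and 6 were lower. The higher ones were a pair of phosphatases 2C (XLOC_092731 and XLOC_120460) and the homologue of abscisic acid-deficient 4 (XLOC_014508), which acts in the synthesis of the hormone's precursors and rose from 9.36 to 10.8 FPKM to 41.9 to 47.6 FPKM. The calls of both phosphatases were lost at the same total (log2 fold changes 0.52 and 0.50). The cytokinin list had 3 higher and 4 lower of 43 (6.98% and 9.3%, near the shares of all loci), and 2 and 9 at the same total. Its response regulator ARR11 (XLOC_076161) fell from 9.65 to 10.6 FPKM to 0.615 to 1.92 FPKM. The DELLA protein GAIP (XLOC_054777), a repressor of gibberellin responses, had 4.16 to 7.43 FPKM in CK, 0.223 to 0.654 FPKM in 15A, and a mean of 23.1 FPKM in 15AN.

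Cell wall genes changed in both directions. Of 29 expansins and xyloglucan enzymes, 8 were higher and 9 lower (4 and 14 at the same total), and of 45 pectin enzymes, 12 were higher and 8 lower (7 and 15 at the same total). Expansins loosen cell walls during growth. XLOC_058070 (expansin A4-like) had 67.9, 70.2, and 62.7 FPKM in CK and 499, 392, and 384 FPKM in 15A (2.64 ± 0.10), whereas XLOC_080378 (expansin A4) fell from 9.62 to 12.2 FPKM to 0.301 to 2.30 FPKM (-2.43 ± 0.30). A galacturonosyltransferase-like protein (XLOC_038588), of a family that builds wall polysaccharides, rose from 38.2 to 47.5 FPKM to 395 to 432 FPKM (3.26 ± 0.09), and a polygalacturonase inhibitor (XLOC_108559) rose from 373 to 434 FPKM to 2200 to 3132 FPKM (2.70 ± 0.13). The cellulose and beta-glucan list had 11 lower and 1 higher of 65, and 10 and 2 without 15A replicate 1. Its largest falls were in plasmodesmata callose-binding protein 3 (XLOC_123611, 29.4 to 32.4 FPKM in CK and 1.99 to 3.58 FPKM in 15A) and endoglucanase 1 (XLOC_027271, 21.1 to 22.8 FPKM and 2.24 to 4.58 FPKM).

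Phenylpropanoid and lignin genes were lower at 18 of 77 loci and higher at 5, and 19 and 4 without 15A replicate 1. Leucoanthocyanidin dioxygenase (XLOC_020224), which acts late in anthocyanin synthesis, had 83.5, 90.3, and 88.1 FPKM in CK and 20.1, 8.72, and 6.72 FPKM in 15A (-2.92 ± 0.29). Laccase 3 (XLOC_126875), of a family that polymerises lignin, fell from 20.3 to 23.9 FPKM to 2.45 to 3.55 FPKM, and dirigent protein 22 (XLOC_138141), which guides the coupling of monolignols, fell from 41.7 to 51.2 FPKM to 7.97 to 11.4 FPKM. Of 6 tested loci of phenylalanine ammonia-lyase, the entry enzyme of the pathway, 3 fell, and these were looked up after the list count was seen. They were XLOC_015463 (5.61 FPKM in CK and 1.19 FPKM in 15A), XLOC_056163 (18.4 and 5.04 FPKM), and XLOC_095229 (53.5 and 23.7 FPKM), the last of which was not called without 15A replicate 1.

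Fatty acid desaturases and acetylenases had a median log2 difference of 0.76, against 0.09 over all loci, and of 0.16 against -0.50 at the same total. The list was also shifted in 15N and 15AN, with medians of 0.67 and 0.38 against the same CK libraries. Oleate desaturase FAD2-4 (XLOC_034966) had 9.97, 8.77, and 10.3 FPKM in CK and 103, 93.4, and 87.8 FPKM in 15A (3.16 ± 0.08, adjusted p = 5.68e-09). Of 14 tested acetylenase loci, enzymes that place a triple bond in fatty acids, 4 rose and none fell. XLOC_084702, the one with the highest level and chosen for it, went from a mean of 11120 ± 437 FPKM to 26910 ± 1109 FPKM (SD, n = 3), a log2 fold change of 1.27 that was 0.64 and not called at the same total and turned to -0.30 under quantile normalisation. XLOC_006457 went from 538 to 557 FPKM to 2504 to 3492 FPKM (2.38 ± 0.12). The call of XLOC_006457 was kept at the same total. The values of closely related copies of this family may share reads.

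Saponin and sterol synthesis had 3 higher and 5 lower of 55 loci (5.45% and 9.09%, near the shares of all loci), and 2 and 14 at the same total. Squalene epoxidases, which act before the ring closure of sterols and saponins, differed by locus. XLOC_111656 rose from 4.93 to 5.42 FPKM to 18.4 to 22.5 FPKM (1.76 ± 0.08), and XLOC_106575 fell from 8.10 to 9.84 FPKM to 0.679 to 1.16 FPKM (-2.41 ± 0.18). Among UDP-glycosyltransferases, which add sugars to such products, 10 were higher and 7 lower of 72 (5 and 15 at the same total), and UGTPg44 (XLOC_109856) rose from 23.2 to 29.9 FPKM to 176 to 204 FPKM (2.88 ± 0.11). The cytochrome P450 CYP71D312 (XLOC_142498) rose from 432 to 449 FPKM to 2121 to 2230 FPKM (2.30 ± 0.06), with libraries of 15A close together.

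Class III peroxidases are secreted enzymes that use hydrogen peroxide to cross-link wall polymers and to make lignin. Their median log2 difference in 15A was -0.96, and the count of 14 lower loci was the same without 15A replicate 1. Peroxidase 42 (XLOC_075988) had 164, 160.4, and 171 FPKM in CK and 17.8, 20.5, and 21.9 FPKM in 15A (-2.99 ± 0.10, adjusted p = 1.86e-08). XLOC_056684 fell from 79.9 to 89.9 FPKM to 7.61 to 10.7 FPKM (-3.10 ± 0.10). Both were also low in 15N (18.7 and 6.84 FPKM) and in 15AN (36.1 and 15.2 FPKM), and in the direct tests no peroxidase was called in 15A against 15N, while the test against 15AN called 3 higher and 2 lower. Intracellular antioxidant enzymes and glutathione genes had 4 higher and 4 lower of 113, with 3 and 7 without 15A replicate 1 and 2 and 23 at the same total.

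Transcription factor families differed in direction. All 7 called NAC factors, a plant family with many members in stress and senescence, were higher. NAC domain protein 100 (XLOC_112975) had 26.4, 28.6, and 24.4 FPKM in CK and 141, 155, and 142 FPKM in 15A (2.42 ± 0.08), and NAC 72 (XLOC_074700) had 184 to 198 FPKM and 703 to 874 FPKM. Without 15A replicate 1, 4 NAC loci remained higher and none was lower. Of the AP2/ERF factors 13 fell, such as ethylene-responsive factor 12 (XLOC_090354), from 39.1 to 43.0 FPKM to 5.70 to 14.5 FPKM (-2.06 ± 0.24), while the ERF095-like locus described above rose. MYB44 (XLOC_021703) fell from 9.31 to 11.9 FPKM to 0.638 to 1.63 FPKM, and MYB34 (XLOC_091690) rose from 1.24 to 1.35 FPKM to 9.81 to 11.97 FPKM.

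Photosynthesis and light harvesting genes, which mark green tissue, were measured because 15A replicate 1 differed there. The summed level of the 63 tested loci was 1954 to 2086 FPKM in CK, and 2839, 1491, and 1450 FPKM in 15A replicates 1, 2, and 3. The median log2 difference of the list from CK was 0.21 in 15A replicate 1 and -0.47 and -0.52 in the other libraries. Hence 7 loci were higher and 16 lower in 15A with all libraries, and 5 higher and 25 lower without replicate 1. A chlorophyll a-b binding protein of photosystem II (XLOC_078466) had 15.8 to 17.5 FPKM in CK and 6.16, 0.661, and 0.887 FPKM in 15A, so that replicate 1 lay between the groups. Chlorophyll synthesis genes, 3 lower of 27, became 6 lower without it. Ribosomal proteins moved in the same library, with a median of 0.32 in 15A replicate 1 against -0.16 and -0.10. Root markers, a list of 16 loci, summed to 324 to 326 FPKM in CK and 382 to 419 FPKM in 15A. Of these loci, 1 was higher and 3 were lower in 15A (6.25% and 18.8%), and none was higher and 4 were lower at the same total. The part of green tissue in the differences above was not tested.

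**Figure D4:**
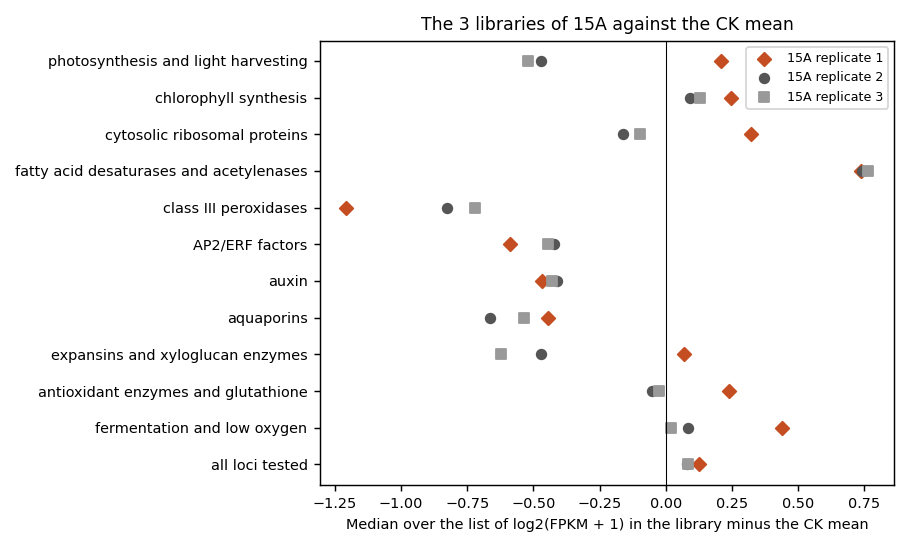
Each point is the median, over the tested loci of a gene list, of log2(FPKM + 1) in one 15A library minus the CK mean of each locus. 15A replicate 1 is apart from replicates 2 and 3 for photosynthesis (0.21 against -0.47 and -0.52) and ribosomal proteins (0.32 against -0.16 and -0.10), whereas the 3 libraries nearly coincide for fatty acid desaturases and for auxin.

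Loci of ammonium-fed roots were finally compared with the nitrate-fed groups. In 15A, 571 loci were higher and 294 lower than in 15N (2.64% and 1.36% of the tested loci), and 1032 were higher and 483 lower than in 15AN (4.78% and 2.24%). Of the 1636 loci higher than in CK, 199 were also higher than in 15N and 428 also higher than in 15AN. The loci higher in 15A than in CK, 15N, and 15AN numbered 126 (0.584%), and those lower than in all of the 3 groups numbered 69 (0.320%). Without 15A replicate 1 these counts were 157 and 110, of which 96 and 54 were the same loci. At the same total the balance turned, with 63 higher and 126 lower, of which 63 and 68 were the same loci. The 3 comparisons share the 15A libraries, so a library that stands apart enters all of them.

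Among the loci higher than in each other group was an oxalate-CoA ligase (XLOC_066420, scaffold20805:40226-45064, minus strand), which activates oxalate for its breakdown. It had 134, 152, and 136 FPKM in CK, 1762, 1133, and 1113 FPKM in 15A, 557 to 581 FPKM in 15N, and 308 to 325 FPKM in 15AN. The 15A value was above CK by 3.21 ± 0.15, above 15N by 1.20 ± 0.15, and above 15AN by 2.04 ± 0.15 on the log2 scale. The transcription factor DOF3.4 (XLOC_104520) had 11.1 to 12.4 FPKM in CK, 121, 89.7, and 81.8 FPKM in 15A, 22.9 to 33.3 FPKM in 15N, and 20.4 to 22.6 FPKM in 15AN. It exceeded these groups by 2.93, 1.70, and 2.14 on the log2 scale. A xyloglucan endotransglucosylase/hydrolase (XLOC_079767), which cuts and rejoins wall xyloglucan, had 6.92 to 7.90 FPKM in CK and 43.9, 77.3, and 86.6 FPKM in 15A, with 15A replicate 1 closest to 15N (29.2 to 33.8 FPKM) and 15AN (25.9 to 38.9 FPKM). The factor bHLH137 (XLOC_145352) had a mean of 4.08 FPKM in CK, 20.4 FPKM in 15A, 2.19 FPKM in 15N, and 6.55 FPKM in 15AN. Arginine decarboxylase and SWEET1, given above, also belong here.

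A hydroperoxide lyase (XLOC_050403), which cleaves fatty acid hydroperoxides to aldehydes, had the largest increase among the named loci that were called, at 0 to 0.671 FPKM in CK and 34.3 to 52.2 FPKM in 15A. Its locus spans 296 nt, and FPKM of loci shorter than 300 nt are less certain. It averaged 18.9 FPKM in 15N and was listed at 0 in 15AN.

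Loci lower in 15A than in every other group were led by a BTB/POZ domain protein (XLOC_084659), with 26.4, 28.3, and 34.3 FPKM in CK and 8.09, 3.79, and 5.09 FPKM in 15A. Its means were 27.0 FPKM in 15N and 53.6 FPKM in 15AN. A 2-alkenal reductase (XLOC_126846), which removes reactive aldehydes, had 83.1 to 89.3 FPKM in CK, 32.5, 21.3, and 23.4 FPKM in 15A, 207 to 219 FPKM in 15N, and 88.7 to 98.7 FPKM in 15AN. It was lower in 15A than in CK by 1.71 ± 0.13 on the log2 scale and lower than in 15N by 3.03 ± 0.13. Cinnamoyl-CoA reductase 1 (XLOC_094642), the first step specific to lignin monomers, averaged 40.4 FPKM in CK, 14.3 FPKM in 15A, 33.0 FPKM in 15N, and 32.1 FPKM in 15AN. The replication licensing factor MCM6 (XLOC_082584), a helicase subunit used when DNA is copied, had 46.0 to 55.1 FPKM in CK and 27.9, 12.4, and 15.6 FPKM in 15A, against means of 43.0 FPKM in 15N and 74.8 FPKM in 15AN. APS reductase 3 belongs to the same set.

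**Figure D5:**
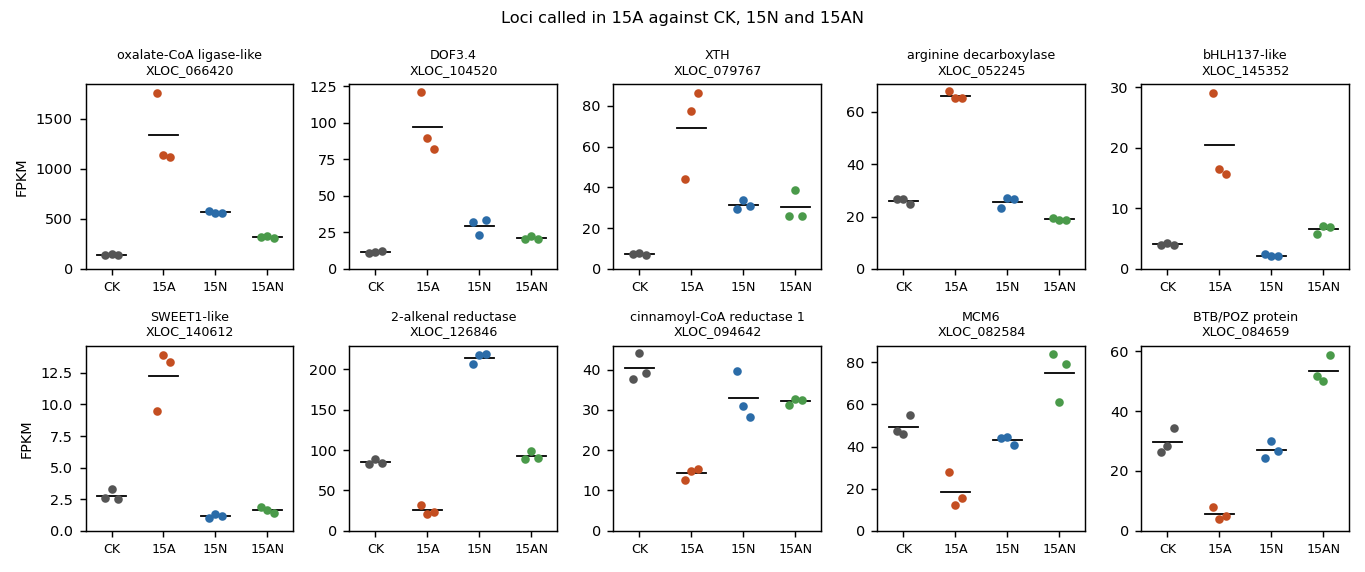
Points are the FPKM of the 3 libraries of each group on linear axes from 0, and lines are group means, for 10 loci that passed the thresholds in 15A against CK, 15N, and 15AN in the same direction. In the 6 loci that were higher, 15A lies above all libraries of the other groups, as in arginine decarboxylase (65.4 to 68.0 FPKM), and in the 4 that were lower it lies below them, as in the BTB/POZ protein (3.79 to 8.09 FPKM).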

How the data were processed

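The deposited table holds FPKM per locus, which the authors computed with TopHat2 2.0.13, Cufflinks 2.2.1, and Cuffnorm 2.2.1, per the labels. Reads were aligned to a draft genome of P. notoginseng, and locus descriptions came from searches of Nr and Nt. The table holds no read counts, so the precision of a value rests on 3 libraries per group. Positions are those of the table, counted from 1. Groups follow the nitrogen form in the labels.

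Values were compared as log2(FPKM + 1) in limma 3.58.1 (eBayes with trend, R 4.3.3), with 12 libraries in 1 model of 4 group means. The contrasts were 15A against CK, 15N, and 15AN, two-sided, adjusted by Benjamini-Hochberg over 21589 loci with a mean of 5 FPKM or more in CK or 15A. A locus was called when its adjusted p was below 0.05 and its difference exceeded 2-fold. The procedure was tested on simulated data. Fold changes on this scale understate the change of low loci.

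Gene lists (56) match words in the first Nr description. Named genes were the 12 largest described changes per direction at 20 FPKM or more without overlap, the 4 largest called members per list, all tested loci of ammonium uptake and assimilation, nitrate reduction, and ATP-citrate lyase, and the 6 largest per direction called in the 3 contrasts. Loci outside this rule are marked as chosen after their values were seen or as named by Nt. Members, lists, and rules were chosen with earlier results of these data known, and some list patterns were corrected for stray word matches. Alternatives were other pseudocounts, filters, scalings, array weights, a replicate block, a stricter threshold, and leaving out each replicate. Figures were drawn with matplotlib. No sequences were used.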

Additional observations from a re-analysis of the deposited data

How the results depend on the processing

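The counts of called loci depended most on scaling and on the treatment of low values. At the same total, the comparison with CK gave 606 higher and 4352 lower loci, and 583 were higher and 1125 lower than in 15AN. With a pseudocount of 5, 778 loci were lower than in CK, 296 were higher and 178 lower than in 15N, and 576 were higher and 248 lower than in 15AN. Without a filter, 2468 loci were lower than in CK, 540 lower than in 15N, and 900 lower than in 15AN, and with a mean of 10 FPKM or more these counts were 946, 191, and 302, since other numbers of loci were tested. The fits without 15A replicate 1 and with the same total (718 higher and 3728 lower), and with 2 groups only without that replicate, were added after the data were seen. Leaving out single replicates gave 1550 to 1751 higher and 1440 to 1611 lower loci against CK, 514 to 658 and 255 to 368 against 15N, and 976 to 1111 and 428 to 593 against 15AN. The acetylenase XLOC_084702 was the single named locus whose direction turned, to -0.30 under quantile normalisation, and the cause was not tested. Of 228 named loci that were called, 168 kept their call in every alternative in which they were tested.

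Replicate numbers did not pair the libraries. Deviations from the group means of same-numbered CK and 15A libraries correlated at -0.037, -0.034, and -0.051, and with a replicate block 1624 loci were higher and 1506 lower than in CK. Neither read depth nor read counts were used, so the counting error of low loci is unknown.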

Other observations

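Growth and barrier genes gave further values for ammonium-fed roots. Among 106 tested loci of the cell cycle and histones, 1 was called higher and 9 lower against CK (0.943% and 8.49%). The lower share was near the 7.01% of all loci, and the higher share was below their 7.58%. The counts were 2 and 8 without 15A replicate 1, and 1 and 23 at the same total. The list had a median log2 difference of 0.02. Its summed level was 6303 to 6878 FPKM in CK and 7881 to 10170 FPKM in 15A. The higher locus, annotated as cyclin-J18 (XLOC_100736), rose from 210 to 503 FPKM to 1107 to 1698 FPKM. The falls given next are of single members and not of the list as a whole. Histone H1 (XLOC_074159), which packs chromatin, had 120.3, 131, and 115 FPKM in CK and 46.3, 40.9, and 41.3 FPKM in 15A, a log2 fold change of -1.49 ± 0.07 (limma, adjusted p = 1.32e-07), with means of 61.3 FPKM in 15N and 86.4 FPKM in 15AN. Kinesin 1 (XLOC_059370), a motor protein, had 8.49 to 10.1 FPKM in CK and 1.78 to 2.95 FPKM in 15A. Of 79 loci of the Casparian strip, suberin, and lipid transfer, which serve the root's barriers, 7 were higher and 16 lower (3 and 26 at the same total), and CASP-like proteins changed in both directions. XLOC_046303 (CASP-like 4B1) rose from 15.1 to 16.1 FPKM to 63.2 to 67.7 FPKM, and XLOC_061458 (CASP-like 3A1) fell from 12.7 to 15.2 FPKM to 0.853 to 4.39 FPKM.

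Of 194 receptor-like kinases, 11 were higher and 14 lower (5.67% and 7.22%), and of 119 loci of calcium signalling, 8 were higher and 15 lower (6.72% and 12.6%). At the same total these counts were 3 and 45, and 2 and 35. The calcium-binding protein CML19 (XLOC_030027) had 112, 112, and 103 FPKM in CK and 34.0, 16.8, and 18.4 FPKM in 15A (log2 fold change -2.26 ± 0.23), and the CBL-interacting kinase 1 (XLOC_135792) had 148 to 152 FPKM and 499 to 651 FPKM (1.87 ± 0.09). Among chaperones, BAG regulator 3 (XLOC_008183) rose from 14.2 to 16.1 FPKM to 61.4 to 65.1 FPKM, and was higher in 15A than in 15N, where its mean was 28.8 FPKM. Heat shock protein 1 (XLOC_074134) had 34.0 FPKM in 15A replicate 1 against 6.17 and 4.22 FPKM in the other libraries of 15A.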
